A study of Mus musculus with 6 samples.

Results

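The genes of acetylcholine metabolism and reception were examined in the retinal RNAseq of 5XFAD mice. They were chosen by gene symbol from a list of 10, and all 10 were found among the 19401 genes that the files list in at least 1 of 6 libraries. Each passed the filter on low counts. The list holds the enzyme that makes acetylcholine (Chat), the transporters that load it into vesicles (Slc18a3) and return choline to the terminal (Slc5a7), the enzyme that breaks it down (Ache), 5 nicotinic receptor subunits (Chrna3, Chrna6, Chrna7, Chrnb2 and Chrnb3) and 1 muscarinic receptor (Chrm1).

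Both groups were 9-month-old hemizygous 5XFAD mice on the B6SJL background, which carry mutant human amyloid precursor protein and presenilin 1 transgenes, and no wild type group was sequenced. EFV-treated mice received efavirenz, an anti-HIV drug, in drinking water from 3 to 9 months of age, at 0.08 mg/kg of body weight per the sample labels; the methods of the study give a slightly higher dose. Control mice, which the labels call untreated, received the Tween 80 vehicle per the methods. Each group had 3 libraries. A library stands for a pool of 5 to 6 animals, which the methods describe as male, with 1 retina and its RPE taken per animal, and the error given here is therefore that between pools. In such bulk samples fewer cells of a type and less RNA per cell cannot be told apart.

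Acetylcholine is made from choline and acetyl-CoA in cholinergic neurons, packed into synaptic vesicles and, after release, split by acetylcholinesterase in the synaptic cleft, from which choline is taken up again. In the retina the cholinergic neurons are the starburst amacrine cells, which shape the direction-selective responses of ganglion cells and, during development, drive spontaneous waves of activity. Nicotinic receptors are cation channels of 5 subunits carried by ganglion cells and several types of amacrine cell, and muscarinic receptors are coupled to G proteins.

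The libraries held 23455167 to 24590278 counts assigned to genes, and 3 of them stood apart. In control pool 3 the summed FPKM of 7 lens markers was 1508, against 14.4 to 81.0 in the other pools. In control pool 2 the sum of 7 RPE markers was 22.2, against 43.4 to 54.1. In EFV pool 3 the sum of the Y-linked genes Ddx3y, Eif2s3y, Kdm5d and Uty was 25.2, against 51.9 to 69.8, in mice that the methods describe as male. Xist was listed in no library, and the reason for the low sum was not tested. The retinal identity of the tissue was plain in each pool, with summed FPKM values of 22396 to 24061 for 5 rod markers, 331.1 to 355.4 for 7 amacrine cell markers and 467.7 to 522.3 for 9 ganglion cell markers. All 6 markers chosen for starburst amacrine cells were listed, with sums of 55.4 to 60.7, although some of them, such as Isl1 and Sox2, are also used by other retinal cells. Isl1 (mean FPKM 28.6) and Sox2 (15.3) gave most of each sum, with Megf10 at 3.4 and Fezf1 at 0.518.

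Levels of the 10 genes differed widely in these retinas, from an FPKM of 40.3 ± 3.40 (SD over the 6 libraries, n = 6) for Ache to 1.40 ± 0.181 for Chrm1. FPKM is a level per transcript length and library size, so it can be compared between genes. Ache was followed by Chrna6 (33.5 ± 1.80), Chrnb3 (16.9 ± 0.949) and Chrnb2 (13.3 ± 0.0852). These are the only 4 of the 10 above an FPKM of 10 in any library; Ache ranked above 89.5% of the 15537 genes tested and Chrna6 above 86.8%. Then came Slc18a3 (4.99 ± 0.691), Chat (4.47 ± 0.455), Chrna7 (3.45 ± 0.369), Slc5a7 (3.12 ± 0.240) and Chrna3 (2.34 ± 0.197). Chat ranked above 37.9% of the genes tested and Chrm1 above 19.7%.

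Neighbors in this order did not always differ beyond the spread between pools. The ranges of Ache and Chrna6 over the 6 libraries overlapped, although Ache was the higher of the pair in 6 of 6 libraries. Slc18a3 and Chat overlapped and Slc18a3 was higher in 5 of 6. Chat and Chrna7 overlapped as well, with Chat higher in 6 of 6, and so did Chrna7 and Slc5a7, with Chrna7 higher in 4 of 6. No overlap was found between Chrna6 and Chrnb3, Chrnb3 and Chrnb2, Chrnb2 and Slc18a3, Slc5a7 and Chrna3 or Chrna3 and Chrm1. The enzyme that removes acetylcholine was thus the most abundant transcript of the list and the enzyme that makes it was 9.09 ± 1.26 times lower (FPKM of Ache over that of Chat, mean ± SD, n = 6).

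**Figure D1:**
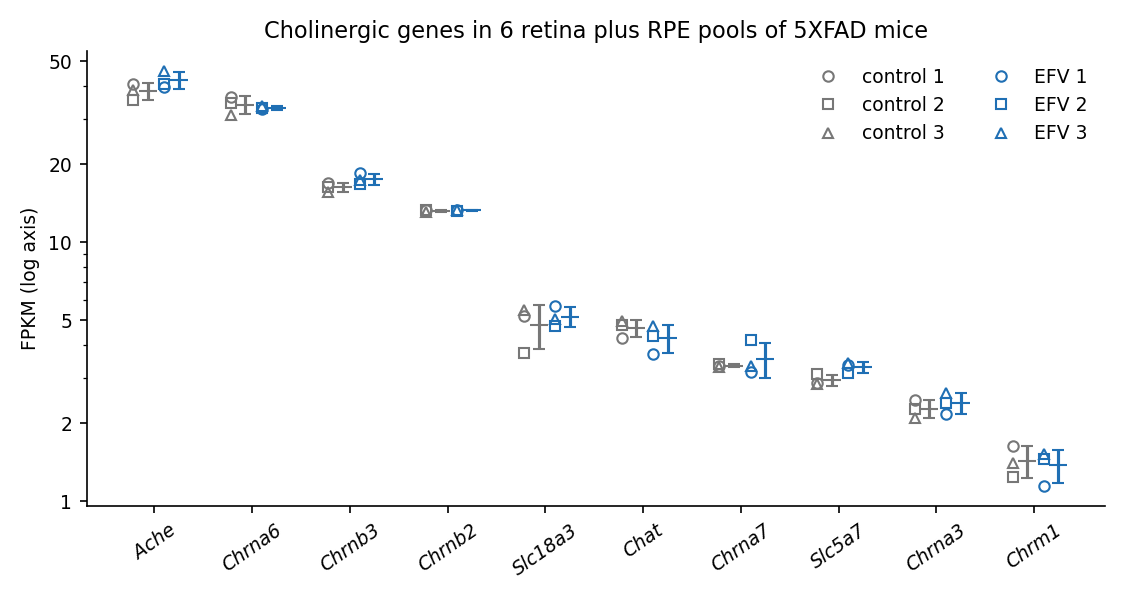
FPKM (log axis) of the 10 cholinergic genes in 3 control (gray) and 3 EFV-treated (blue) pools, with the symbol marking the pool number and bars giving the mean ± SD of each group. Ache, Chrna6, Chrnb3 and Chrnb2 lie above 13 in every pool and the other 6 genes below 6, and in 9 of the 10 genes the groups overlap.

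Chat and Slc18a3 lie in a shared locus, and their sequences are shown for this reason. On mm10 (GENCODE M21 annotation), Chat (Entrez 12647) spans chromosome 14 from 32408203 to 32465989 on the minus strand. Slc18a3 (Entrez 20508), from 32462438 to 32464850 on the same strand, lies within an intron of Chat near its 5′ end and shares no exonic base with it. The promoter windows, from 250 bases before to 50 after each RefSeq start (GRCm38.p6), are given with that of Ache, the most abundant gene of the list. They are chr14:32465860-32466159 (minus strand) for Chat, chr14:32464801-32465100 (minus strand) for Slc18a3 and chr5:137288004-137288303 (plus strand) for Ache. The Ache window lies inside the gene as GENCODE M21 places it (137287519 to 137294466), so it is not the flank of that annotated start. Capitals mark matches on either strand to the GC box GGGCGG, the E-box CACGTG and the CRE core TGACG.
Chat: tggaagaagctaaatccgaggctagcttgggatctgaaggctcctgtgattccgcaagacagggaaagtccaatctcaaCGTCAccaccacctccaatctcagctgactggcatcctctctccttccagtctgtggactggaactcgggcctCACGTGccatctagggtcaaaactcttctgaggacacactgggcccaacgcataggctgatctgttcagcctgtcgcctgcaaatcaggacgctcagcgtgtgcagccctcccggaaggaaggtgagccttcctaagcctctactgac
Slc18a3: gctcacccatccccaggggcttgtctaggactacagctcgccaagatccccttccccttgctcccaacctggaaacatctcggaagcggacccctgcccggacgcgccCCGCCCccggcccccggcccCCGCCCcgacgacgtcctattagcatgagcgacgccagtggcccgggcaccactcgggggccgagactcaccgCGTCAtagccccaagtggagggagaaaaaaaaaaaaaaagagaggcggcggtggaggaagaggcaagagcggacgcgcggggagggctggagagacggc
Ache: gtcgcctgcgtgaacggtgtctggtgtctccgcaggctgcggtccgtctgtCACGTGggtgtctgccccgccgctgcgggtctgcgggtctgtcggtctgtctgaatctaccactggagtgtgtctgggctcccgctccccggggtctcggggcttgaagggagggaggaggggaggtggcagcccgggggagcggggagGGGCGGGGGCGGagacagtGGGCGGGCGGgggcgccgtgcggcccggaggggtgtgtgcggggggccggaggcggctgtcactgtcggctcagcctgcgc

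The windows of the nested pair differ in make-up. The Chat window holds 55.7% G and C, 1 E-box, 1 CRE core and no GC box. The Slc18a3 window holds 67.0% G and C, 2 GC boxes, 1 CRE core and no E-box. The Ache window holds 74.0% G and C, more than 95.2% of the 32851 promoter windows of the RefSeq table, with 4 GC boxes, of which the last pair overlaps, and 1 E-box. A GC box was present in 35.7% of all windows, the E-box in 7.15% and the CRE core in 20.8%. The Egr1 site GCGTGGGCG (0.612% of all windows) was found in none of the 7 members that the table holds, and the TATA box TATAAA (13.6%) only in Slc5a7. These matches are a description of letters in the windows.

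The genes that supply acetylcholine were compared between EFV-treated and control mice with the quasi-likelihood test of edgeR. Chat, choline acetyltransferase, had FPKM values of 4.28, 4.80 and 4.95 in control pools 1, 2 and 3 and of 3.72, 4.34 and 4.75 in EFV pools 1, 2 and 3. The groups overlapped, and the lowest value was that of EFV pool 1. The log2 fold change was -0.15 (standard error 0.11, 95% interval -0.39 to 0.10, adjusted p = 0.999 by edgeR with BH). It was -0.06 without EFV pool 1 and -0.22 without EFV pool 3, with unadjusted p-values of 0.607 and 0.0897 (edgeR).

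Slc18a3, the vesicular acetylcholine transporter, had FPKM values of 5.19, 3.74 and 5.48 in control and of 5.69, 4.76 and 5.05 in EFV-treated pools. Control pool 2 was the low library, and the range of control enclosed 2 of the 3 EFV pools. The log2 fold change was 0.09 (standard error 0.14, 95% interval -0.22 to 0.40) with all libraries and -0.06 without control pool 2. That pool also had the lowest sums of RPE markers (22.2) and of amacrine cell markers (331.1, against 335.7 to 355.4 in the others); their part in the result was not tested.

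Slc5a7 (Entrez 63993, chromosome 17 from 54273590 to 54299034, minus strand), the high-affinity choline transporter, had FPKM values of 2.86, 3.11 and 2.84 in control and of 3.35, 3.12 and 3.42 in EFV-treated pools. It was the only gene of the 10 whose FPKM groups did not overlap, by a margin of 1 unit in the last deposited digit between control pool 2 and EFV pool 2, where 7.67% of all genes tested did not overlap. After TMM scaling of the counts the groups did overlap, with 16.3 CPM (counts scaled to library size) in control pool 2 and 16.2 in EFV pool 2, where 8.14% of all genes tested did not overlap on that scale. The log2 fold change was 0.15 (standard error 0.07, 95% interval -0.02 to 0.32), the largest of the 10 in the direction of EFV, with an unadjusted p of 0.0765 and an adjusted p of 0.999 by edgeR. Without control pool 2 the log2 fold change was 0.20, with an unadjusted p of 0.0367 (edgeR). With any other single pool left out it lay between 0.12 and 0.18, with unadjusted p-values of 0.0697 to 0.197 (edgeR).

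Since Chat and Slc18a3 share a locus, their ratio was followed from pool to pool. FPKM of Slc18a3 over that of Chat was 1.21, 0.779 and 1.11 in control pools 1, 2 and 3 and 1.53, 1.10 and 1.06 in EFV pools 1, 2 and 3. The extremes were thus control pool 2 and EFV pool 1, in each of which 1 gene of the pair was at its lowest and the other was not. The ratio of Slc5a7 to Chat was 0.668, 0.648 and 0.574 in control and 0.901, 0.719 and 0.720 in EFV-treated pools, without overlap. Of the 6 ratios between members tested, this and that of Chrna6 to Chrnb3 (below) reached the smallest p that 3 pools against 3 allow (two-sided exact permutation test, p = 0.1, BH-adjusted p = 0.3), and the remaining 4 had p-values of 0.2 to 0.9 (same exact permutation test).

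Ache, acetylcholinesterase, was the gene with the lowest p of the list. Ache (Entrez 11423, chromosome 5 from 137287519 to 137294466 on the plus strand) had FPKM values of 41.0, 35.3 and 38.8 in control and of 39.9, 41.0 and 45.7 in EFV-treated pools. The groups overlapped, as control pool 1 lay above EFV pool 1, and EFV pool 3 was the highest. The means were 38.4 ± 2.86 (SD, n = 3) and 42.2 ± 3.10 (SD, n = 3), and the fold change was 1.09 (95% interval 0.996 to 1.2; log2 fold change 0.13, standard error 0.06). The unadjusted p of 0.0580 lay above the limit of 0.05 and the adjusted p was 0.999 (edgeR, BH). The study, with a threshold based on the Poisson distribution, listed Ache as differentially expressed at a ratio of 1.09.

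The call for Ache rested on the setting and on single pools. Its unadjusted p was 0.0477 with total counts as the scaling and 0.0456 when only genes with an Entrez identifier were fitted (edgeR). It was 0.0363 without control pool 1, 0.0188 without EFV pool 1, 0.209 without control pool 2 and 0.200 without EFV pool 3, the pool with low Y-linked genes, where the log2 fold change was 0.08. EFV pool 3, the library high in Ache, was also the highest in the marker sums of amacrine cells (355.4), ganglion cells (522.3), RPE (54.1), oligodendrocytes (25.1), skeletal muscle (7.84) and red blood cells. Its rod marker sum (22396) was the lowest of all pools. It was not the highest for starburst amacrine cells (58.5, against 60.7 in EFV pool 1), Muller glia, endothelium, microglia or lens. For the red cell markers the summed FPKM (4 of 4 genes listed) was 213.2, 108.7 and 149.4 in control and 104.5, 87.8 and 233.4 in EFV-treated pools. EFV pool 2, which had the lowest of these sums, was second in Ache. The red cell membrane also carries acetylcholinesterase, and the part of these cell types in the result was not tested. The gene sums 4 transcripts in the files, 2 of RefSeq and 2 that the files name BGI_novel, and its mean transcript length moved between 2853 and 2949 bases from library to library. It overlaps the predicted gene Gm42456 on the opposite strand by 98 exonic bases, and whether counting used the strand is not given in the sources used here.

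Among the nicotinic subunits, Chrna6 and Chrnb3, whose products combine in receptors of ganglion cells, were the most abundant. The pair is adjacent on chromosome 8, with Chrnb3 from 27368711 to 27399730 (plus strand) and Chrna6 from 27403212 to 27413944 (minus strand), 3481 bases apart. Chrna6 had FPKM values of 36.3, 34.6 and 31.0 in control and of 32.7, 32.9 and 33.7 in EFV-treated pools, so that the range of control enclosed all EFV pools. Its log2 fold change was -0.05 (standard error 0.06, 95% interval -0.18 to 0.08).

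Chrnb3 had FPKM values of 16.9, 16.4 and 15.6 in control and of 18.5, 16.8 and 17.4 in EFV-treated pools, with an overlap between control pool 1 and EFV pool 2. Its log2 fold change was 0.09 (standard error 0.05, 95% interval -0.02 to 0.20), with an unadjusted p of 0.106 (edgeR). The pair therefore moved in opposite directions in the point estimates, and neither difference passed the test. The ratio of Chrna6 to Chrnb3 was 2.14, 2.11 and 1.98 in control and 1.77, 1.96 and 1.94 in EFV-treated pools, without overlap, and its exact permutation p is given above.

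Control pool 3 was the lowest library for Chrna6, Chrnb3 and Chrna3. The sum of the 9 ganglion cell markers was also lowest there, at 467.7, against 478.7 to 522.3 in the other pools. The single markers were divided. Slc17a6, Nefh, Thy1 and Sncg were lowest in control pool 3, but Rbpms, Pou4f1, Pou4f2, Nefl and Nefm were lowest in EFV-treated pools. The lens markers were highest in control pool 3, and the part of these markers in the result was not tested. Without control pool 3 the log2 fold change of Chrna6 was -0.12 with an unadjusted p of 0.0311 (edgeR), past both limits of the study. In that fit 523 of all 15435 genes tested passed them, and the log2 fold change of Chrnb3 was 0.05. Without control pool 1, the highest in Chrna6, that of Chrna6 was -0.01 with an unadjusted p of 0.880 (edgeR). Leaving out any other single pool gave -0.06 to -0.04.

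Chrnb2 (Entrez 11444, chromosome 3 from 89746195 to 89764632, minus strand), the β subunit that pairs with several α subunits in neurons, was the steadiest gene of the list. Its FPKM was 13.3, 13.3 and 13.1 in control and 13.3, 13.2 and 13.4 in EFV-treated pools, a ratio of 1.02 between the highest and the lowest library. The log2 fold change was -0.01 (standard error 0.04) and its 95% interval, from -0.10 to 0.07, was the narrowest of the 10. The annotation places 1365 exonic bases of Chrnb2 opposite to exons of Adar, which matters only if counting ignored the strand.

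Chrna3 (Entrez 110834, chromosome 9 from 55010111 to 55026562, minus strand) and Chrna7 (Entrez 11441, chromosome 7 from 63098692 to 63212569, minus strand) were low. Chrna3, which forms part of a cluster with Chrna5 and Chrnb4, had FPKM values of 2.46, 2.28 and 2.09 in control and of 2.18, 2.40 and 2.63 in EFV-treated pools (log2 fold change 0.06, standard error 0.12). Chrna7, which forms channels of a single subunit type with high calcium permeability, had FPKM values of 3.32, 3.39 and 3.31 in control and of 3.15, 4.18 and 3.32 in EFV-treated pools (log2 fold change 0.07, standard error 0.14). A single library, EFV pool 2, stood above the others for Chrna7, and without it the log2 fold change was -0.07. Both genes had 156 to 207 counts per library, and their 95% intervals reached from -0.24 to 0.38, so that the interval of Chrna7 extended to 1.30-fold.

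The summed FPKM of the 13 nicotinic subunits listed in any library was 89.7, 88.0 and 82.8 in control and 86.9, 87.6 and 87.5 in EFV-treated pools. Chrna6 and Chrnb3 made up 58.0% ± 1.19 (SD, n = 6) of this sum and the 5 members together 79.9% ± 0.754. The make-up was alike in the 6 pools, the share of Chrna6 and Chrnb3 lying between 56.4% and 59.4%. Of the subunits that are not members, Chrna4 (7.66 ± 0.10), Chrnb1 (5.54 ± 0.334) and Chrna5 (1.72 ± 0.306) were the most abundant (FPKM, SD, n = 6). Of the 4 subunits that complete the muscle receptor beside Chrnb1, Chrnd and Chrng were listed in no library, Chrna1 lay between 0.07 and 0.10 and Chrne between 0.05 and 0.13.

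**Figure D2:**
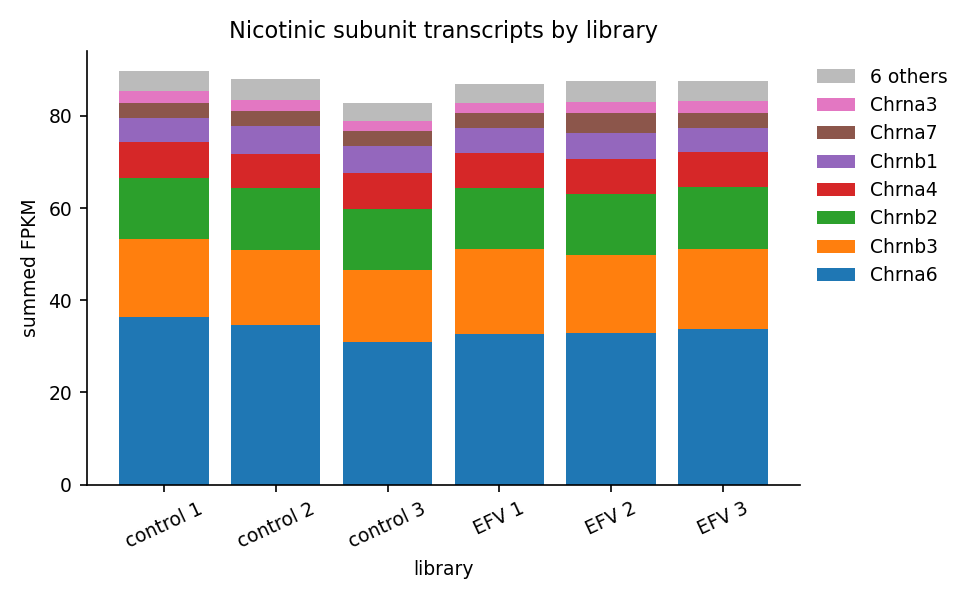
Stacked FPKM of nicotinic subunit transcripts in each of the 6 pools, with the 6 least abundant of 13 subunits in gray. The totals lie between 82.8 and 89.7, and Chrna6 (bottom) and Chrnb3 form 56.4% to 59.4% of each bar.

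Chrm1 (Entrez 12669, chromosome 19 from 8663789 to 8683587, plus strand), a muscarinic receptor coupled to phospholipase C, had the lowest level of the list. Its FPKM was 1.64, 1.24 and 1.41 in control and 1.15, 1.46 and 1.52 in EFV-treated pools, with both extremes in pools numbered 1. The log2 fold change was -0.07 (standard error 0.14, 95% interval -0.39 to 0.25). The annotation places 329 of its exonic bases opposite to Gm22820. Chrm3 was the most abundant muscarinic receptor at 2.75 ± 0.344, followed by Chrm2 at 1.95 ± 0.197, and Chrm4 at 0.832 ± 0.123 lay below Chrm1 (FPKM, SD, n = 6). The summed FPKM of nicotinic subunits was 12.3 ± 1.14 times that of the 5 muscarinic receptors (SD, n = 6); a nicotinic receptor needs 5 subunits and a muscarinic receptor a single chain, so this is a ratio of transcripts and not of receptors.

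No member passed the limits that the study set for its genes, a fold change of at least 7% and a p of at most 0.05, here applied to the unadjusted p of edgeR. The study based its threshold on the Poisson distribution. Ache, alone of the 10, is among the genes it reported as differentially expressed. Of all genes tested 3.01% passed, 1.47% (228) above control and 1.54% (239) below it. With total counts as the scaling the split was 288 above and 159 below, and with limma on log2(FPKM + 0.1) it was 297 and 192. At an unadjusted p of 0.05 alone, edgeR found 0 of the 10 and 3.04% of all genes. After BH adjustment at 0.05 it called 0 of the 10 and 0% of all genes, while DESeq2 called 11 genes, none of them a member. The log2 fold changes lay between -0.15 (Chat) and 0.15 (Slc5a7), with 6 above 0 and 4 below. Their median was 0.07, against 0.00 over all genes tested, and the median size without regard to sign was 0.08, against 0.06. A Poisson model, in which only counting error enters, was run on total counts without TMM scaling. In it 3 of the 10 (Ache, Chrnb3 and Slc5a7) and 15.3% of all genes passed the same limits. The model is not a repeat of the test of the study, whose reported genes include neither Chrnb3 nor Slc5a7.

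**Figure D3:**
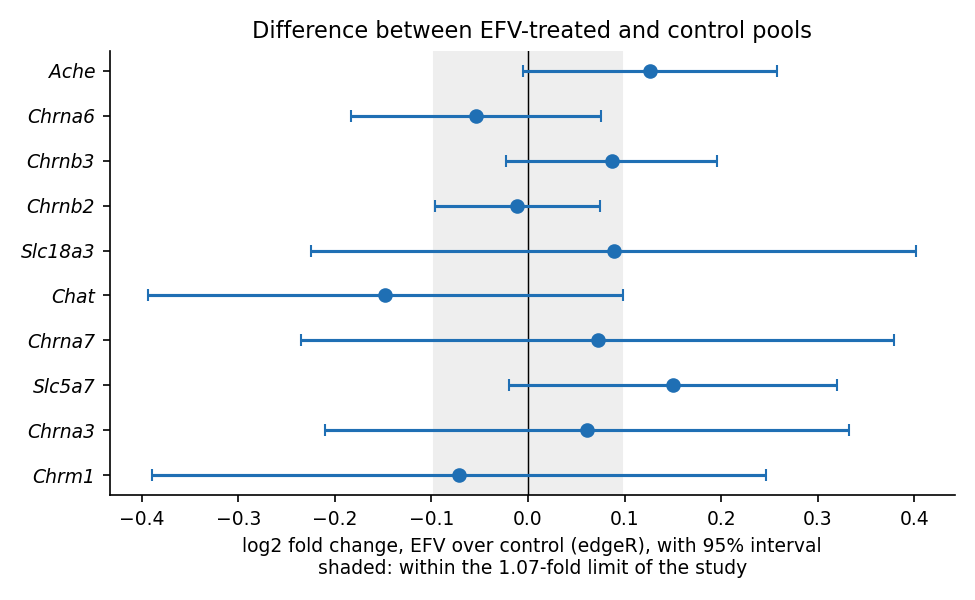
Log2 fold change of EFV-treated over control mice for each gene (point) with its 95% interval (bar) from edgeR, and the range within the fold change limit of the study shaded. Each interval includes 0; that of Ache (-0.01 to 0.26) comes closest to leaving it out and that of Chrnb2 is the narrowest.

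The other genes of the pathway were taken from a list of 38, of which 35 were listed in the files and 30 were tested. By edgeR 0 of the 30 passed the limits of the study, as against 3.01% of all genes tested, and none had an unadjusted p of 0.05 or less, the lowest being 0.139 for Chka, choline kinase α (edgeR). The log2 fold changes were above 0 in 14 and below 0 in 16, with a median of -0.01. Of the cholinesterase partners, Prima1, which anchors acetylcholinesterase in neuronal membranes, had an FPKM of 6.33 ± 0.475 (SD, n = 6), and Colq, the collagen tail of the muscle form, 0.07 ± 0.050. Bche, butyrylcholinesterase, had an FPKM of 0.732 ± 0.132, well under that of Ache.

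Genes that assist or modulate nicotinic receptors ranged in FPKM from 1.01 (Lypd1) to 52.7 (Lynx1) among the 8 tested, and the 3 highest are described. Lynx1, a membrane-anchored modulator, had an FPKM of 52.7 ± 1.83, Tmem35a, a chaperone of α7 and other receptors, 26.7 ± 1.78 and Ric3, another chaperone, 21.9 ± 0.441 (SD, n = 6). Their log2 fold changes were 0.02, 0.07 and -0.05, with standard errors of 0.05, 0.06 and 0.04, and none passed the test. Of the genes of choline supply and use, Acly, which makes cytosolic acetyl-CoA, had an FPKM of 67.2 ± 1.92, the choline kinase Chkb 24.7 ± 1.29 and the choline transporter Slc44a1 20.2 ± 1.10. Their log2 fold changes lay between -0.05 (Acly) and 0.05 (Chkb), and none passed the test.

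Across the 6 pools the 10 genes did not follow a shared pattern. Of the 45 pairs of members, 25 had a positive Pearson correlation of log2 CPM, with a median of 0.10 and a range from -0.96 (Chrnb2 with Slc18a3) to 0.70 (Chrnb3 with Slc5a7); each rests on 6 points that share libraries, and Chrnb2 hardly varied. Chat and Slc18a3 had a correlation of -0.48 and Chat and Chrnb3 of -0.87, while the neighbors Chrna6 and Chrnb3 had 0.15. EFV pool 1 was the lowest library for Chat, Chrm1 and Chrna7 and the highest for Slc18a3 and Chrnb3.

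**Figure D4:**
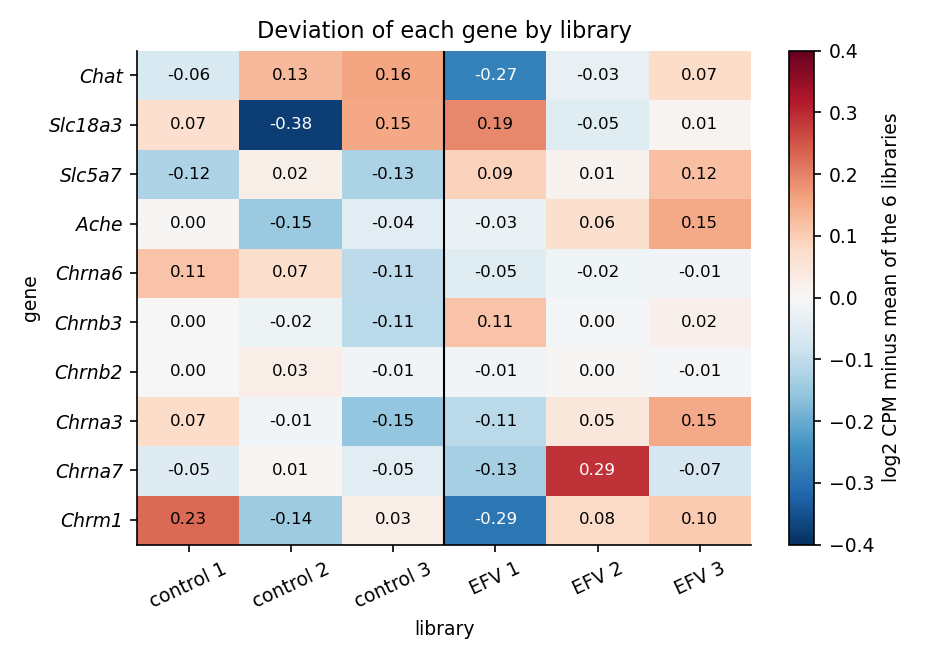
Deviation of log2 CPM from the mean of the 6 libraries, by gene (rows) and library (columns), red for above and blue for below the mean. The strongest values are single cells, -0.38 for Slc18a3 in control pool 2, 0.29 for Chrna7 in EFV pool 2 and -0.29 for Chrm1 in EFV pool 1, and the row of Chrnb2 is nearly blank.

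The genes whose pattern over the 6 libraries was most like that of Chat were Mybpc2 (Pearson r = 0.99), Kcnj6 (0.98) and Slc12a7 (0.98), and those most like Ache were A730017C20Rik (0.99), Tha1 (0.99) and Map2k2 (0.98). With 14376 genes compared over 6 points, 114 genes had an r of at least 0.9 with Chat and 123 with Ache. These values are a description of the libraries.

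The spread between pools of a group was set against counting error as a chi-square per degree of freedom, where 1 means that the pools differ by no more than sampling of reads gives. The median over all genes tested was 2.46. Ache (9.47), Chrna6 (7.56) and Slc18a3 (5.82) spread more than this, and Chrna7 (2.45), Chat (3.09), Chrnb3 (3.29) and Chrm1 (4.01) lay around or somewhat above it. Chrna3 (1.29) and Slc5a7 (0.971) were near 1, with 156 to 426 counts per library. Chrnb2, at 0.157, spread less than 1 allows on average, and 0.747% of the genes tested had a lower value. The subunit Chrna4 was similar at 0.104.

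**Figure D5:**
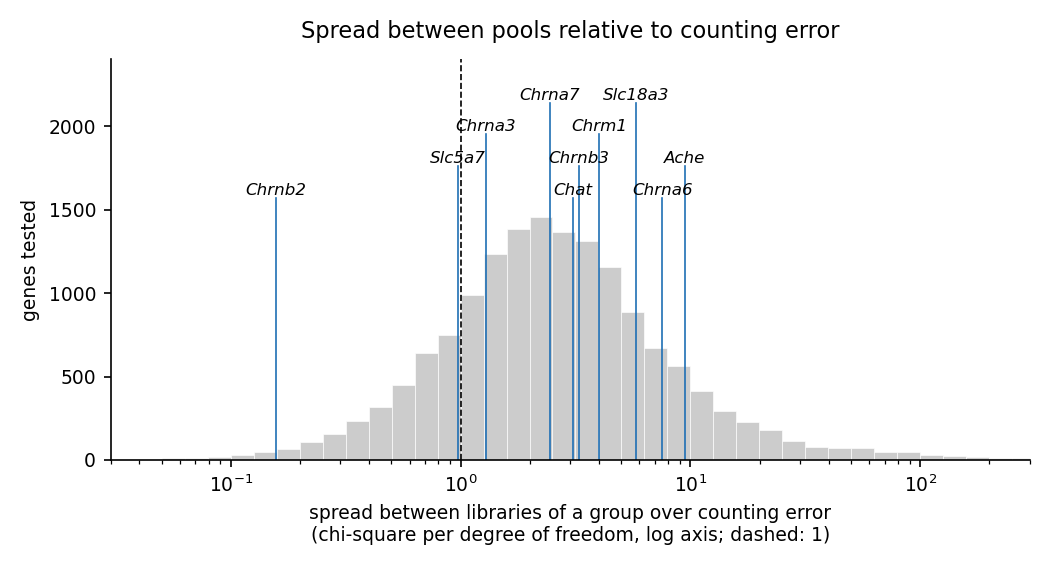
Histogram over the 15537 genes tested of the spread between pools of a group relative to counting error (chi-square per degree of freedom, log axis), with the 10 cholinergic genes as vertical lines and the value 1 dashed. Most genes lie above 1 (median 2.46), Chrnb2 lies far to the left at 0.157 and Ache to the right at 9.47.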

How the data were processed

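Retina plus RPE of 5XFAD mice gave 6 RNA libraries, grouped as control (3) or EFV-treated (3) by the treatment in the labels. To obtain the expected counts, the authors aligned filtered reads to mm10 with Bowtie2 v2.2.5 and ran RSEM v1.2.12 per gene (HISAT2 v2.0.4 is also in the submitters' processing notes), and these are not normalized. The deposited FPKM values are the authors' counts per transcript length and library total, rounded to 0.01, and a gene absent from a file was taken as 0. The annotation release, read filter and strandedness are not given in the sources used here.

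Expected counts were rounded and TMM-scaled, and the 15537 genes that reached 10 counts in 3 or more libraries entered a two-sided quasi-likelihood fit (edgeR 4.0.16 under R 4.3.3), with BH adjustment over all of them. Intervals are 95% from the same fit. The smallest two-sided p of an exact permutation test here is 0.1. Alternatives were other scalings, filters, DESeq2 1.42.0, limma 3.58.1 on log2(FPKM + 0.1) and log2(FPKM + 1), a block for the replicate number and leaving out pools. A further alternative was a Poisson model on total counts without TMM scaling. The methods were tested on simulated data. Total counts of 23455167 to 24590278 per library make counting error small for genes such as Ache and sizable for those with some 200 counts.

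All 10 members were named, and of the other cholinergic genes the 3 most abundant of each of 5 lists, with the 3 genes most like Chat and Ache in pattern. The remaining genes named with values were chosen after those values were seen. They include Chka, Lypd1, Slc44a2, Slc44a4, the muscle receptor subunits, the Y-linked genes and the single markers of ganglion and starburst amacrine cells. The members and lists were chosen with earlier results of these data known. Promoter sequences are from the RefSeq table for GRCm38.p6, which holds 7 of the 10 members.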

Additional observations from a re-analysis of the deposited data

How the results depend on the processing

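At the limits of the study the number of the 10 genes that passed was 0 with RLE and upper quartile scaling, other count filters, DESeq2, limma and the replicate block, 1 with total counts as the scaling (Ache; 447 of all 15537 genes passed), 1 with Entrez identifiers only (Ache; 427 of 14377) and 3 with the Poisson model (2376 of 15537). With 1 library left out it was 0 to 1, where between 389 of 15423 and 576 of 15432 genes passed. Ache passed without control replicate 1 or EFV replicate 1, Slc5a7 without control replicate 2 and Chrna6 without control replicate 3. Without both control replicate 3 and EFV replicate 3, a setting chosen after seeing the data, it was 1 (Chrna6, where 667 of 15591 genes passed). Of the other cholinergic genes 1 passed without a filter on low counts by edgeR (576 of all 19385 genes passed) or by limma (634 of 19385). It was Slc44a4 in both, with only 0, 1 and 1 counts in control and 7, 3 and 4 in EFV-treated pools. The main fit did not test it. With the Poisson model 1 passed (Slc44a2, where 2376 of 15537 genes passed), and without both replicates 3 also 1 (Slc44a1, where 667 of 15591 passed). With 1 library left out the number was 0 to 1 (Chka without EFV replicate 1, where 434 of 15437 genes passed). Over all genes, BH adjustment at 0.05 left 11 by DESeq2, 2267 by the Poisson model and 0 to 1 with 1 library left out, and the limits of the study passed 467 by edgeR and 269 by DESeq2.

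The direction of Chrnb2 turned with total counts as the scaling (0.0045), limma (0.0054 with a pseudocount of 0.1, also without a filter, and 0.0051 with 1) and the Poisson model (0.0045). With 1 library left out the log2 fold change lay between -0.16 and 0.045 for Chrm1, -0.0022 and 0.13 for Chrna3, -0.073 and 0.15 for Chrna7 and -0.057 and 0.19 for Slc18a3, and, with the direction kept, -0.22 and -0.056 for Chat, -0.12 and -0.0094 for Chrna6, 0.051 and 0.11 for Chrnb3, 0.12 and 0.20 for Slc5a7 and 0.080 and 0.17 for Ache, and without both replicates 3 that of Chrna3 was -0.063 and that of Slc18a3 0.21. Of 190 such values for the 10 genes, 169 kept direction and side of the threshold, 10 passed it and 11 turned; the causes were not tested.

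With the replicate number as a block 0 of the 10 genes and 0 of the other cholinergic genes passed, and 0 of all genes after BH adjustment. Deviations of libraries with the same number had correlations of 0.12, 0.083 and 0.099, each the highest for that library, which is a hint from the data and not from the labels.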
